A study of Mus musculus with 12 samples.

Results

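The p53 pathway was examined in the livers of ethionine-treated and untreated ob/ob mice through a list of 35 genes: Trp53 itself, its inhibitors and genes known as p53 targets. Members were the listed genes with 10 or more counts in at least 6 of the 12 libraries, which held for 34 of them. All 12 mice were ob/ob (B6.Cg-Lep ob/J), which lack leptin, become obese and develop fatty liver, and were 8 to 10 weeks old at the start. The 6 mice of the FLO group received standard chow, and the 6 of the fibrotic group received the same chow with ethionine, the ethyl analogue of methionine. The deposited descriptions disagree on the dose: the series design has 0.165% DL-ethionine in the water over 2 weeks, a growth note has an injected 0.15%, and the study's methods have the lower dose in drinking water for a shorter time. The group name "fibrotic" comes from the labels. In the edgeR test described below, the collagen genes Col1a1 (log2 fold change -0.22, adjusted p = 0.611) and Col3a1 (-0.03, adjusted p = 0.925) were not called. The study reports no difference in Col1a1 expression in its ethionine-treated ob/ob mice. RNA was taken from whole liver, poly(A)-selected and sequenced, with 1 library per mouse and between 17815568 and 24814263 counts per library.

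The p53 protein is a transcription factor that is kept scarce by the ubiquitin ligase Mdm2 and becomes stable when DNA is damaged or when ribosome assembly or nucleotide supply is disturbed. It binds a response element made of a pair of consensus decamers and switches on genes for cell cycle arrest, apoptosis, DNA repair and metabolism, along with Mdm2, which closes a negative feedback loop. Much of its control acts on the protein, so mRNA of Trp53 is only a partial view of its activity, while mRNA of its targets is the usual readout. In hepatocytes, p53 responses often take the form of arrest rather than death.

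Response elements of several members lie close to a transcription start and were read from RefSeq promoters (GRCm38.p6), each window running from 250 bases before to 50 bases after a start. Of the 34 members, 27 had 38 promoter entries. A pair of p53 consensus decamers (searched on both strands by its palindrome, at most 1 base apart, at most 3 mismatches in 20 bases, with the C and G of each core intact) was found in 10 of these entries, or 26.3%, against 2.83% of all 32851 entries. The list was made of genes known as p53 targets, so this share describes the list and is not a test of it. The 10 entries belong to 9 members, and both Aen entries hold the same site. The sites of the 6 members with a site and a call of higher RNA in fibrotic livers are shown first. That of Bbc3, for which the groups overlapped, follows. Capitals mark the decamers and lower case the flanks, 5′ to 3′ on the gene's strand.
Cdkn1a, chr17:29090908-29090967 (+), 1 mismatch: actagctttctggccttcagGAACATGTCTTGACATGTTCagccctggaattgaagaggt
Ccng1, chr11:40755442-40755501 (-), 1 mismatch: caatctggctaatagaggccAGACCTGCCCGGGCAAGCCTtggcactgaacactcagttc
Bax, chr7:45467059-45467119 (-), 2 mismatches: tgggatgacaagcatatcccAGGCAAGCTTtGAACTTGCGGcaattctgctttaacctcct
Aen, chr7:78895917-78895976 (+), 3 mismatches: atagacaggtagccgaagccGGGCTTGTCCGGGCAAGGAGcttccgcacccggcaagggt
Tigar, chr6:127109726-127109785 (-), 3 mismatches: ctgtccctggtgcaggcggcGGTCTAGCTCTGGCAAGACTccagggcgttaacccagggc
Trp53, chr11:69580264-69580323 (+), 3 mismatches: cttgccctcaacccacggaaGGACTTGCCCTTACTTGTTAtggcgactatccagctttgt
Bbc3, chr7:16309466-16309525 (+), 3 mismatches: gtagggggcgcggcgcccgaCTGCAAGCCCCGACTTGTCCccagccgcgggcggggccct

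The Cdkn1a site lies at an upstream start, 2790 bases from the other annotated start of the gene. Sites with 3 mismatches were also found for Dcxr and Sesn1, so 6 of the 15 members with a promoter entry and higher RNA had a site, as did 3 of the 11 members with an entry that were not called. A match of letters is not a measured binding site, and elements in introns or farther upstream lie outside these windows.

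Before the groups were compared, sex-linked genes were read to test the stated sex, since the series design and the study's methods name males alone. FLO replicate 3 held 3773 counts of Xist, the RNA of the inactive X chromosome, against 0 to 4 in the other 11 libraries, and 4 counts of the Y-linked Ddx3y against 556 to 977. This library goes against its stated sex, and changes of call among the members without it are given beside each member. The 8 hepatocyte markers, Alb, Ttr and Hnf4a among them, were abundant in every library, with summed levels of 53020 to 89430 CPM (counts relative to library size, which was scaled by TMM) in fibrotic and 77300 to 90070 CPM in FLO libraries. The groups were compared by edgeR's quasi-likelihood test over 13416 genes, and a gene was called at a Benjamini-Hochberg adjusted p of at most 0.01 when its log2 fold change also passed 0.5 in either direction. Adjusted p-values below are from that test. Of the 8 hepatocyte markers, Apoa1 was called lower (log2 fold change -1.68, adjusted p = 7.93e-07). Apoc3 (0.65, adjusted p = 0.000316) and Cps1 (0.73, adjusted p = 0.00646) were called higher, and 5 were not called. These are 25.0% higher and 12.5% lower, against 15.9% and 14.0% of all genes tested. Alb, which was not called, made up most of the sum, with medians of 65940 CPM in FLO and 50510 CPM in fibrotic libraries.

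Most members were higher in fibrotic livers. Of the 34, 18 were called higher, where 15.9% of all genes tested were called higher, and 1 was called lower, where the share of all genes was 14.0%. The median log2 fold change of the members was 0.83, against 0.03 over all genes tested, and 28 members had a value above 0. The ranges of both groups were separate for 17 members that were higher (15.3% of all genes) and for 3 that were lower (15.1% of all genes), or 30.4% of all genes in either direction. The listed genes were chosen with earlier results of these data known, so their count describes the list and is not a test of it. Without FLO replicate 3, 17 members were called higher and 1 lower. Each role below holds few genes, and its counts stand beside the same shares of all genes called, 15.9% higher and 14.0% lower.

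**Figure D1:**
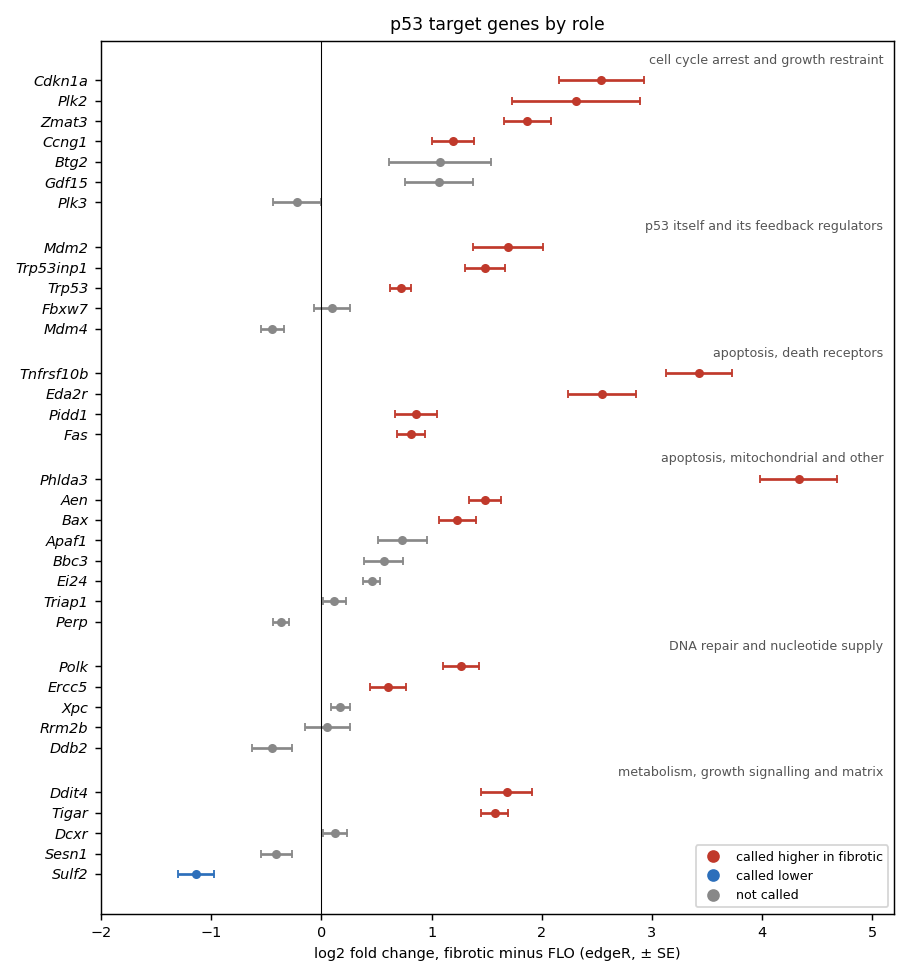
Log2 fold change (fibrotic minus FLO, x axis) of the 34 members, grouped by role, from the edgeR fit with SE bars; colours mark the calls. The 4 genes of the death receptor group (3 receptors and Pidd1) are called higher, and Phlda3 lies farthest to the right at 4.33, while Sulf2 at -1.14 is the 1 member called lower.

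Of the 7 genes that restrain the cell cycle and growth, 4 were called higher and 3 were not called. Cdkn1a, which encodes the cyclin-dependent kinase inhibitor p21, had a lowest, median and highest level of 10.01, 40.3 and 48.4 CPM in FLO and of 115, 185 and 349.8 CPM in fibrotic libraries. The groups did not overlap, and the log2 fold change was 2.54 (SE 0.39, adjusted p = 0.000148). FLO replicate 3 was the lowest of all libraries for this gene, and fibrotic replicate 4 the highest. Zmat3, an RNA-binding protein that acts downstream of p53, went from 9.07, 11.4 and 14.1 CPM in FLO to 20.5, 42.9 and 61.3 CPM in fibrotic libraries. Its rise of 1.87 (SE 0.21, adjusted p = 6.65e-06) left no overlap either. Ccng1, the gene of cyclin G1 and one of the most regular p53 targets in mouse tissue, had 41.9, 46.0 and 50.8 CPM in FLO and 61.1, 107 and 166.5 CPM in fibrotic libraries. All 6 fibrotic libraries lay above all FLO libraries (log2 fold change 1.20, SE 0.19, adjusted p = 0.000132).

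Plk2, a polo-like kinase that p53 induces, was uneven among treated mice. It ran from 7.70 to 11.4 CPM in FLO libraries (median 10.3), and its lowest, median and highest fibrotic values were 12.6, 29.9 and 162.0 CPM. The highest belongs to fibrotic replicate 4 and lies far above the rest. The log2 fold change of 2.31 (SE 0.58, adjusted p = 0.00585) was 1.46 without that library (adjusted p = 0.000765), and without FLO replicate 3 the gene was not called (2.24, adjusted p = 0.01404). Btg2, an antiproliferative gene that growth signals also induce, overlapped between groups, with 17.4, 21.7 and 47.3 CPM in FLO and 21.8, 38.6 and 143 CPM in fibrotic libraries. It was not called (1.08, SE 0.46, adjusted p = 0.0722), and its value was 0.49 without fibrotic replicate 4.

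Gdf15, a secreted stress hormone under control of both p53 and the integrated stress response, missed the threshold narrowly. Its FLO values were 13.6, 18.5 and 41.0 CPM and its fibrotic values 31.7, 39.2 and 82.4 CPM (log2 fold change 1.07, SE 0.31, adjusted p = 0.0107). The highest FLO value came from replicate 6, and without that library the change was 1.33 and was called (adjusted p = 0.00117). Plk3, a further polo-like kinase, had medians of 96.95 CPM in FLO and 95.5 CPM in fibrotic libraries, and the 95% interval of its log2 fold change ran from -0.70 to 0.25.

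Trp53 mRNA itself rose. FLO libraries held 16.75, 18.4 and 20.5 CPM and fibrotic libraries 26.5, 28.8 and 37.6 CPM, with no overlap, and the log2 fold change was 0.72 (SE 0.09, adjusted p = 1.11e-05). Mdm2, the ligase that degrades p53, went from 17.2, 21.5 and 23.4 CPM to 33.85, 51.95 and 137 CPM. All fibrotic libraries exceeded all FLO libraries (1.69, SE 0.31, adjusted p = 0.000612). Mdm4, the related inhibitor that binds p53 without ligase activity of its own, lay the other way, with 20.3, 21.4 and 28.1 CPM in FLO and 13.9, 16.2 and 20.2 CPM in fibrotic libraries. Its groups did not overlap and its adjusted p was 0.00228, but the log2 fold change of -0.44 (SE 0.10) stayed under the fold limit, so it was not called. Both inhibitors therefore had values of opposite sign. Without fibrotic replicate 1 Mdm4 was called lower, at -0.51.

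Trp53inp1, a stress protein that promotes p53 phosphorylation and autophagy, had 69.4, 89.8 and 130.1 CPM in FLO and 194, 262 and 343 CPM in fibrotic libraries. The rise of 1.48 (SE 0.18, adjusted p = 1.14e-05) separated the groups. Fbxw7, the substrate receptor of a ubiquitin ligase for cyclin E and Myc, had medians of 5.497 CPM in FLO and 5.39 CPM in fibrotic libraries and a 95% interval of the log2 fold change from -0.26 to 0.45.

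**Figure D2:**
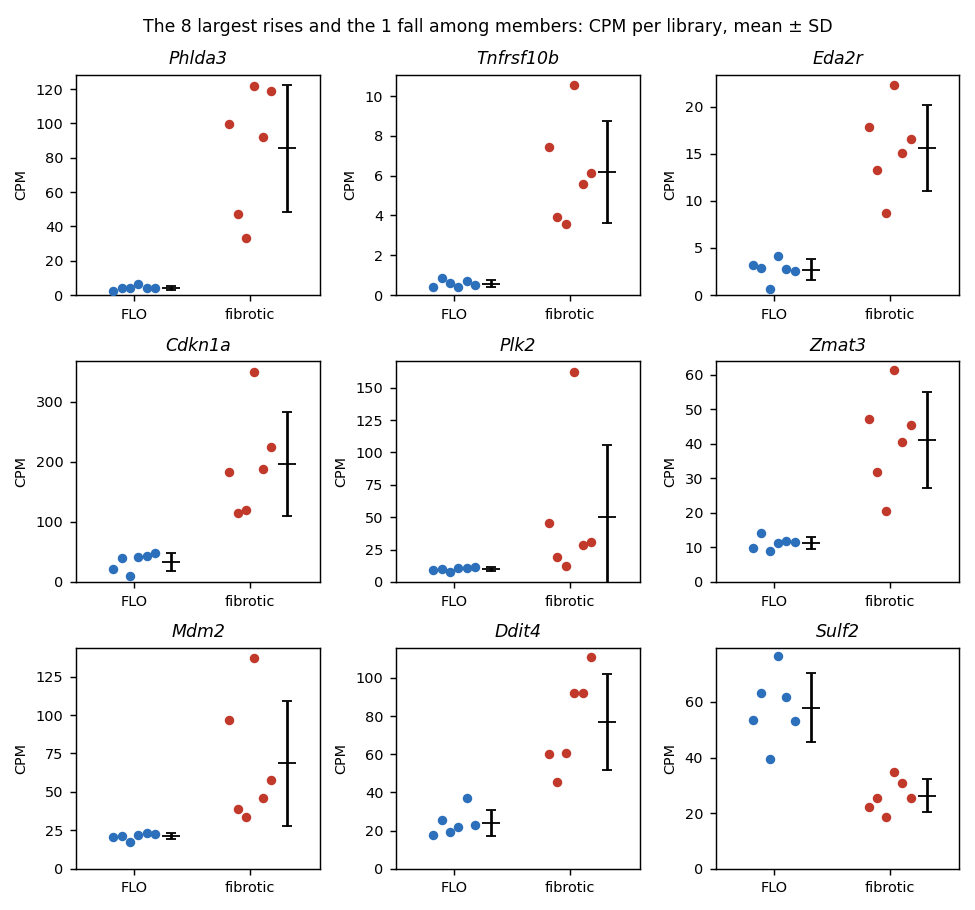
CPM (y axis, from 0) in each of the 6 FLO and 6 fibrotic libraries for the 8 members with the largest rises and for Sulf2; points are libraries and black bars the mean ± SD, cut at 0 for Plk2. Fibrotic points lie above all FLO points in the first 8 panels and below them for Sulf2, and 1 fibrotic library stands far above the others for Plk2, at 162.0 CPM.

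The death receptor group, which holds 3 receptor genes and Pidd1, had 4 of 4 called higher. Tnfrsf10b, the TRAIL receptor of the mouse, was near the limit of detection in FLO livers, with 7 to 15 counts per library, and reached 66 to 226 counts in fibrotic livers. Its FLO values were 0.383, 0.553 and 0.861 CPM and its fibrotic values 3.56, 5.86 and 10.6 CPM, a log2 rise of 3.43 (SE 0.30, adjusted p = 3.50e-07). Only 3 of 6 FLO libraries reached the level of the low-count filter, which the gene passed through the fibrotic group. Eda2r, the X-linked receptor of ectodysplasin A2, had 0.685, 2.80 and 4.11 CPM in FLO and 8.68, 15.8 and 22.3 CPM in fibrotic libraries. The groups were far apart (2.55, SE 0.31, adjusted p = 1.215e-05), and the lowest FLO value was that of replicate 3.

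Fas and Pidd1 had smaller fitted changes. Fas, the receptor of Fas ligand and abundant on hepatocytes, had 15.45, 17.1 and 23.1 CPM in FLO and 26.0, 32.9 and 37.6 CPM in fibrotic libraries. It rose by 0.81 (SE 0.13, adjusted p = 7.29e-05) with no overlap. Pidd1, which assembles the caspase-2 activating complex, had 2.225, 2.51 and 3.79 CPM in FLO and 2.96, 5.203 and 6.03 CPM in fibrotic libraries. It was called (0.86, SE 0.19, adjusted p = 0.00162), although only 5 of 6 fibrotic libraries exceeded the highest FLO library.

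Genes of the mitochondrial and other apoptosis routes were mixed, with 3 of 8 called higher. Phlda3, which blocks Akt by competing for membrane lipids, showed the largest change of all members and ranked 25 among the 13416 genes. It held 2.52, 4.08 and 6.32 CPM in FLO and 33.15, 95.8 and 122 CPM in fibrotic libraries, a log2 rise of 4.33 (SE 0.35, adjusted p = 7.01e-07) or 20.1-fold. Aen, a nuclease that degrades DNA in apoptosis, went from 21.8, 23.7 and 27.4 CPM to 42.7, 68.2 and 85.7 CPM (1.49, SE 0.14, adjusted p = 8.54e-07). For Bax, the pore-forming effector of the mitochondrial outer membrane, values were 20.7, 23.6 and 27.3 CPM in FLO and 35.7, 62.4 and 73.1 CPM in fibrotic libraries (1.23, SE 0.17, adjusted p = 3.18e-05). None of these 3 genes overlapped between groups. Bax shares 12.2% of its exon bases with a same-strand gene, Gm45808, at 211 counts per library on average against 802 for Bax, so reads could be split between them.

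Of the BH3-only genes, whose products trigger Bax, Bbc3 was not called and Pmaip1 was not tested. Bbc3, the gene of Puma, had 6.51, 9.36 and 12.8 CPM in FLO and 9.38, 13.4 and 18.4 CPM in fibrotic libraries. The groups overlapped (0.56, SE 0.18, adjusted p = 0.0145), although without FLO replicate 3 it was called (0.69, adjusted p = 0.00394), as it was without fibrotic replicate 3 (0.66, adjusted p = 0.00524). Pmaip1, the gene of Noxa, was the 1 listed gene under the count rule, with 2 to 10 counts in FLO and 4 to 28 in fibrotic libraries, 3 of the 12 libraries reaching 10. The member nearest to that limit on the inside was Tnfrsf10b, with 10 libraries.

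Apaf1, the scaffold of the apoptosome, overlapped as well, at 1.71, 2.64 and 3.17 CPM in FLO and 2.75, 3.92 and 6.36 CPM in fibrotic libraries (0.73, SE 0.22, adjusted p = 0.0117). Without fibrotic replicate 2 or fibrotic replicate 3 it was called, at 0.83 and 0.80. Ei24, an endoplasmic reticulum protein, separated the groups with a small difference, from 278, 306 and 319.7 CPM in FLO to 378.5, 416 and 448 CPM in fibrotic libraries. Its value of 0.46 (SE 0.08, adjusted p = 0.000123) was under the fold limit. Perp, a desmosome protein of epithelia, was separated in the other direction, at 146.5, 154 and 167 CPM in FLO and 115, 118 and 133 CPM in fibrotic libraries (-0.37, SE 0.07, adjusted p = 0.000454, under the fold limit). Triap1, an inhibitor of apoptosis, had medians of 17.8 and 19.4 CPM and a 95% interval of the log2 fold change from -0.11 to 0.34.

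Of the 5 DNA repair genes, 2 were called higher, and the median of the group was 0.17 on the log2 scale. Polk, the translesion polymerase kappa, had 3.47, 3.93 and 4.67 CPM in FLO and 6.88, 9.88 and 12.5 CPM in fibrotic libraries, with no overlap (1.27, SE 0.16, adjusted p = 1.14e-05). Ercc5, the endonuclease of nucleotide excision repair also called Xpg, had 9.88, 11.6 and 13.6 CPM in FLO and 13.4, 16.0 and 25.9 CPM in fibrotic libraries. That call (0.60, SE 0.16, adjusted p = 0.00601) was close to both limits. It was lost when any of 7 single libraries was omitted, for example without FLO replicate 3 (0.55, adjusted p = 0.0152) and without fibrotic replicate 1 (0.47, adjusted p = 0.0135).

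The remaining repair genes were not called. Xpc, the damage sensor of the same pathway, had medians of 23.2 CPM in FLO and 26.4 CPM in fibrotic libraries and a 95% interval from -0.01 to 0.36. Rrm2b, the p53-inducible subunit of ribonucleotide reductase, had medians of 2.52 and 2.79 CPM and an interval from -0.38 to 0.49 at 32 to 64 counts per library. Ddb2, which recognises ultraviolet damage, had 3.94, 5.74 and 8.65 CPM in FLO and 3.42, 4.67 and 5.14 CPM in fibrotic libraries (-0.45, SE 0.18, adjusted p = 0.0476). In GENCODE M21, 23.8% of its exon bases overlap Acp2 on the opposite strand, at 1024 counts per library against 103 for Ddb2, and use of strand in the counting is not given in the sources used here, so its level is uncertain.

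Genes of metabolism, growth signalling and matrix went in different directions, with 2 of 5 called higher and 1 lower. Ddit4, an inhibitor of mTORC1 that glucocorticoids, hypoxia and stress also induce, went from 17.55, 22.3 and 37.25 CPM in FLO to 45.3, 76.3 and 111 CPM in fibrotic libraries (1.68, SE 0.23, adjusted p = 3.95e-05). Tigar, a fructose-2,6-bisphosphatase that restrains glycolysis, had the smallest adjusted p of all members, at 7.05, 8.45 and 9.41 CPM against 21.1, 23.8 and 34.5 CPM (1.57, SE 0.12, adjusted p = 1.19e-07). Neither gene overlapped between groups. Sesn1, a leucine sensor upstream of mTORC1, was not called, at 8.91, 10.6 and 12.45 CPM in FLO and 5.19, 8.535 and 9.31 CPM in fibrotic libraries (-0.41, SE 0.14, adjusted p = 0.0233). Dcxr, the reductase of dicarbonyls and xylulose, had medians of 105.7 and 113.7 CPM and a 95% interval from -0.12 to 0.36.

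Sulf2, which removes sulfate groups from heparan sulfate chains, was the 1 member called lower, while Mdm4 and Perp were also separated in that direction under the fold limit. In Sulf2, 2.62% of exon bases overlap Ncoa3 on the opposite strand. FLO libraries held 39.5, 57.5 and 76.4 CPM and fibrotic libraries 18.5, 25.4 and 34.96 CPM. All fibrotic libraries lay below all FLO libraries, and the fold change of -1.14 on the log2 scale (SE 0.16, adjusted p = 3.97e-05) stayed between -1.23 and -1.05 when single libraries were left out.

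Per base of transcript, members changed places. On a scale of CPM per kilobase of exon (union of GENCODE M21 exons), Dcxr (92.4), Perp (79.0) and Ei24 (62.8) had the highest FLO medians, and their ranges over the 6 FLO libraries set them apart from Cdkn1a (11.3) and Phlda3 (2.62). In fibrotic libraries the median of Phlda3 was 61.5 and that of Cdkn1a 52.2, beside 60.5 for Perp, 85.4 for Ei24 and 99.4 for Dcxr. Phlda3 ran from 21.3 to 78.0 over fibrotic libraries and Perp from 59.1 to 68.3, so the ranges of these 2 genes overlapped.

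Levels of the induced members also varied between treated mice. For the 18 members called higher, fibrotic replicate 4 was the highest of its group in 12, and fibrotic replicate 3 was the lowest in 13. Replicate 2 was the lowest in the other 5. The median log2 difference of these members from the FLO mean was 1.94 in fibrotic replicate 4, 1.64 in replicate 1, 1.56 in replicate 6, 1.36 in replicate 5, 0.95 in replicate 2 and 0.81 in replicate 3. Among FLO libraries the same measure ran from -0.23 in replicate 3, which was the lowest of its group in 9 of the 18, to 0.13 in replicate 5. Because this measure uses members called between the groups, the gap between groups in it is fixed by the choice, and only the order inside a group is a description of the mice. That order was not particular to these genes. On the first principal component over all tested genes, fibrotic replicate 4 lay farthest from the FLO libraries (-67.6), replicates 1, 6 and 5 followed (-48.3, -47.5 and -47.0), and replicates 2 and 3 lay nearest (-34.2 and -30.9), with FLO libraries between 43.3 and 51.1. Fibrotic replicate 4 also had the highest Kupffer cell marker sum of its group (563 CPM, against 277 CPM in replicate 2 and 322 CPM in replicate 3) and the lowest hepatocyte sum (53020 CPM, against 89430 and 82220 CPM). The part of these differences in the order of the members was not tested.

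**Figure D3:**
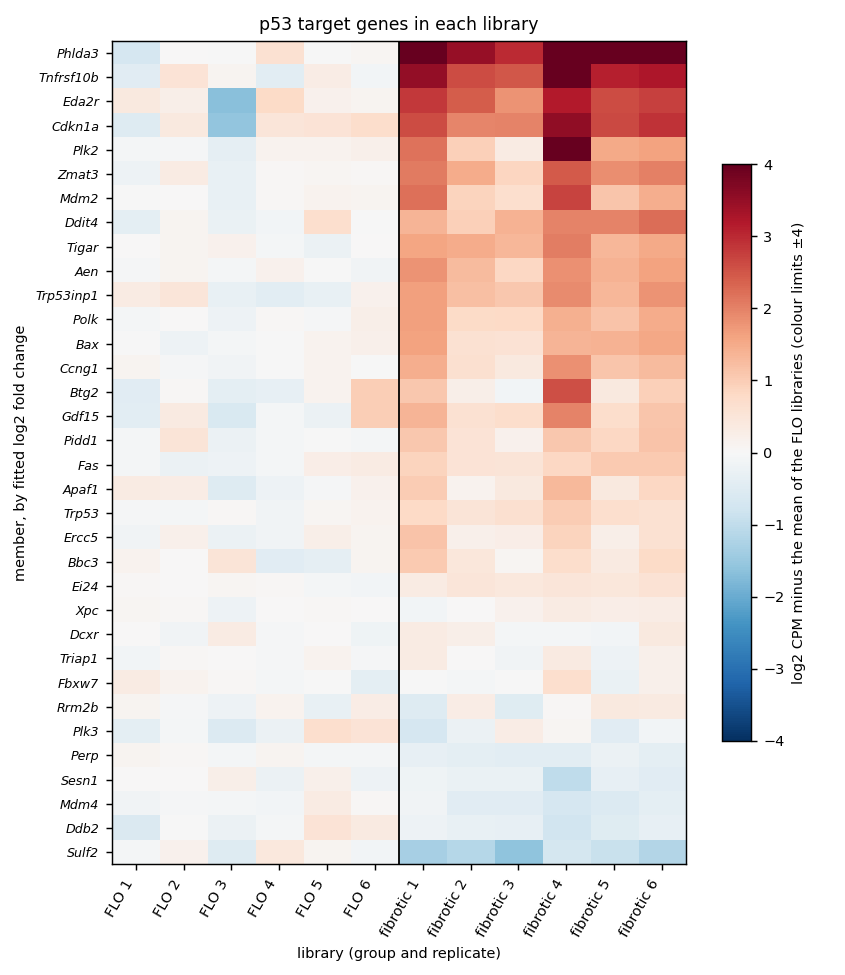
Log2 CPM minus the FLO mean for the 34 members (rows, ordered by fold change) in the 12 libraries (columns); red is higher, blue is lower, and colours stop at 4 on either side. Fibrotic replicates 4, 1 and 6 are darker than replicates 2 and 3 down the upper rows, and the lowest rows, from Perp to Sulf2, are pale blue in fibrotic columns.

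Genes of the pathway outside the members were taken from 3 further lists. Of 20 regulators of p53, 17 were tested. Of these, 1 (5.88%, against 15.9% of all genes) was called higher and 1 (5.88%, against 14.0%) lower, with a median log2 fold change of -0.03. Hipk2, a kinase that phosphorylates p53, had medians of 26.9 CPM in FLO and 61.1 CPM in fibrotic libraries and rose by 1.12 (SE 0.27, adjusted p = 0.00402), but it was not called without fibrotic replicate 4. Prkdc, the catalytic subunit of the DNA-dependent protein kinase, fell from a median of 8.57 to one of 4.81 CPM (-0.91, SE 0.13, adjusted p = 2.92e-05). The damage kinases Atm (-0.30, adjusted p = 0.226), Atr (-0.40, adjusted p = 0.00469, under the fold limit), Chek1 (0.18, adjusted p = 0.611) and Chek2 (-0.60, adjusted p = 0.0213) were not called. Cdkn2a, Trp63 and Trp73 had too few counts to be tested.

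Among 24 further p53 targets, 20 were tested, of which 4 (20%, against 15.9% of all genes) were called higher and 1 (5.0%, against 14.0%) lower, with a median of 0.09. Psrc1, a microtubule-associated gene, rose by 3.02 (SE 0.45, adjusted p = 5.54e-05); it had 2 to 21 counts in FLO libraries, of which 1 of 6 reached the level of the low-count filter, so it entered the test through the fibrotic group. Gtse1, a G2 and S phase gene that restrains p53, rose by 2.06 (SE 0.40, adjusted p = 0.000702). Sesn2 (0.67, adjusted p = 0.00535) and Rps27l (0.66, adjusted p = 0.000169) were called as well. Rps27 is a near copy of Rps27l, and a mixing of reads between them was not tested, so that call is uncertain. Sesn2 was not called by limma-voom (0.62, adjusted p = 0.01056) or when any of 6 single libraries was omitted, FLO replicate 3 among them (0.62, adjusted p = 0.0133). Ckap2, a spindle protein, fell by 1.13 on the log2 scale (adjusted p = 0.00396). It was not called without FLO replicate 1 or FLO replicate 4, and without fibrotic replicate 3 the count of further targets called higher was 7. Without FLO replicate 3, a second gene of this list, Ephx1, was called lower (-0.53, adjusted p = 0.00155). Gadd45a, a common marker of DNA damage, had a log2 fold change of 0.16 (adjusted p = 0.611) and Ppm1d, the phosphatase that switches p53 off, of 0.46 (adjusted p = 0.01075).

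The last list holds cell cycle genes known to be repressed by p53 indirectly, through p21 and the DREAM repressor complex. Most of them were lower in fibrotic livers, and the cause was not tested. Of 22 listed, 19 were tested. Of these, 13 (68.4%, against 14.0% of all genes) were called lower and 1 (5.26%, against 15.9%) higher, with a median of -0.895. Cdc20 (-2.57, adjusted p = 5.45e-05), Ccnb1 (-2.47, adjusted p = 7.13e-05), Ccnb2 (-1.89, adjusted p = 0.00055), Plk1 (-1.82, adjusted p = 0.000369) and Birc5 (-1.65, adjusted p = 0.000456), all genes of mitosis, had the lowest fitted values of the list. They started low, with FLO medians of 1.59 to 3.19 CPM, and passed the low-count filter through the FLO group, where 6 of 6 libraries reached its level against 1 of 6 fibrotic libraries for Ccnb1, 3 for Cdc20, Ccnb2 and Birc5, and 4 for Plk1. Mcm2, a subunit of the replicative helicase, was the 1 gene called higher (0.79, adjusted p = 0.000648), while its partners Mcm3, Mcm4, Mcm5 and Mcm6 were called lower and Mcm7 was not called (-0.01, adjusted p = 0.950). The call of Mcm3 (-0.63, adjusted p = 0.0057) was lost when any of 7 single libraries was omitted, with an adjusted p of up to 0.0156. Foxm1 (-1.19, adjusted p = 0.0077) was not called by limma-voom (-1.08, adjusted p = 0.0223) or in most fits that left out a library. Aurka (-0.85, adjusted p = 0.00173) was not called with the replicate number as a block (adjusted p = 0.0113). With single libraries left out, 11 to 15 genes of the list were called lower, and 12 to 15 under the other alternatives.

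**Figure D4:**
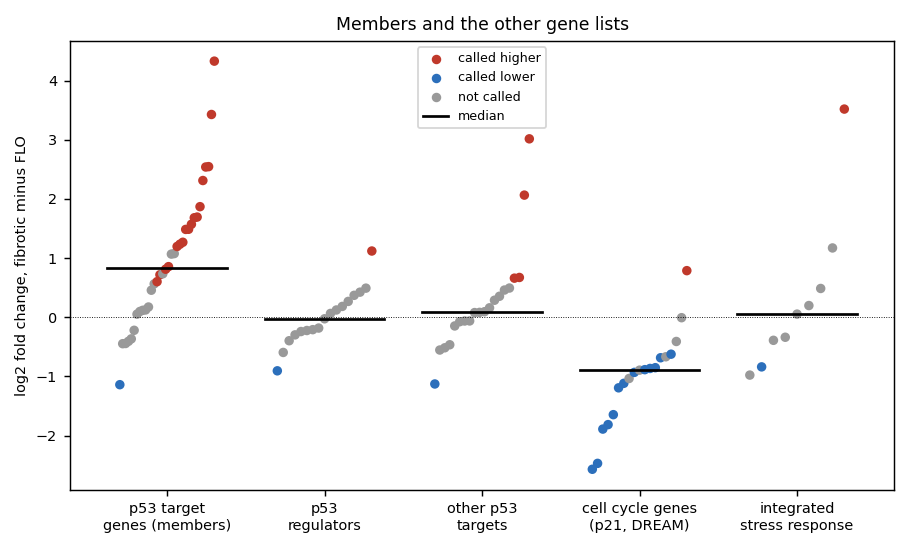
Log2 fold change (fibrotic minus FLO, y axis) of each tested gene in the members and in 4 further lists (x axis); points are genes, coloured by call, and black lines are medians. The members have a median of 0.83 and the cell cycle genes one of -0.895, while the medians of regulators (-0.03), further targets (0.09) and integrated stress response genes (0.05) lie near 0.

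Whole liver holds several cell types, and in bulk RNA fewer cells of a type and less RNA per cell cannot be told apart. Marker sums that differed between groups by the two-sided exact permutation test, adjusted over 7 lists, were those of Kupffer cells (8 genes, 277 to 563 CPM in fibrotic and 235 to 270.4 CPM in FLO libraries, adjusted p = 0.00505), cholangiocytes (6 genes, 26.3 to 58.4 against 20.02 to 25.75 CPM, adjusted p = 0.00505) and endothelial cells (5 genes, 99.99 to 136 against 140.4 to 163 CPM, adjusted p = 0.00505). For recruited macrophages (6 genes, 32.45 to 84.6 against 26.1 to 51.1 CPM) and hepatocytes the adjusted p was 0.0394 each. Each was over 0.05 when any of 9 of the 12 libraries was omitted, though not the same 9 for both sums. Stellate cell (219 to 411 against 208 to 329 CPM, adjusted p = 0.588) and lymphocyte sums (1.36 to 5.01 against 1.37 to 4.50 CPM, adjusted p = 0.740) overlapped widely. The stellate sum joins 7 genes, 3 with a log2 fold change above 0 and 4 below. Of these, edgeR called Lrat higher (0.72, adjusted p = 0.00958, up to 0.0278 under the alternatives), or 14.3% against 15.9% of all genes. The other 6 were not called, Des (-0.80, edgeR adjusted p = 0.0410) among them. The part of cell composition in the levels of the members was not tested.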

How the data were processed

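For 12 mouse liver libraries, the authors deposited unnormalized counts of reads, 1 row for each Ensembl gene. The submitters' processing notes name bcl2fastq, STAR 2.7.3a and mm10, and the study's RNA-seq methods name a stranded kit and PISCES but describe human reads. The annotation and strand setting of this table are not given in the sources used here. Groups and replicate numbers came from sample titles. The series design gives 6 mice per group.

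Symbols were matched for 51745 of 56205 identifiers, and identifiers without one held 0.0587% of counts. Groups were compared over 13416 genes by edgeR's quasi-likelihood test (edgeR 4.0.16 under R 4.3.3) with filterByExpr, TMM and robust estimation. SE was the absolute log2 fold change divided by the square root of F. The deposited counts were scaled to CPM by TMM library size, and log2 CPM used a prior count of 2. Marker sums were compared by an exact permutation test on the log2 scale (smallest p 0.00216). The same fit was also run on counts simulated with 200 changed genes and with no change, and the outcome is not reported here. No 2 libraries of a group agreed within sampling noise (smallest chi-square per degree of freedom 10.9).

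Members and lists were chosen with earlier results of these data known. All members are named. Of the 4 further lists, called genes were named, at most 5 in each direction, with some genes chosen after their values were seen. These were Atm, Atr, Chek1, Chek2, Cdkn2a, Trp63, Trp73, Gadd45a, Ppm1d, Ephx1, Mcm3 to Mcm7, Foxm1, Aurka and the stress response genes without a call. Alternatives were RLE and upper quartile normalization, 2 other low-count filters, DESeq2 1.42.0, limma-voom (limma 3.58.1), the replicate number as a block, estimation without the robust option, omission of each library in turn and looser thresholds. Promoters came from RefSeq GRCm38.p6 and exon lengths from GENCODE M21, whose release may differ from that of the table, which holds identifiers of a later kind.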

Additional observations from a re-analysis of the deposited data

Results flagged for a closer look

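For each of the 34 members, the distance of the top or bottom library of a group from the next one was taken as a share of the whole spread of its 6 log2 CPM values. Of 68 groups of values, 6 passed Dixon's 95% limit, where chance gives about 1 in 20, or 3.4. FLO replicate 3, the library that goes against its stated sex, was lowest for Xpc (ratio 0.789), Eda2r (ratio 0.733) and Mdm2 (ratio 0.629). FLO replicate 5 was highest for Mdm4 (ratio 0.647) and FLO replicate 2 highest for Pidd1 (ratio 0.705). Fibrotic replicate 4 was lowest for Sesn1 (ratio 0.662).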

How the results depend on the processing

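Across the other settings, 16 (replicate block) to 21 (adjusted p of 0.05) members were called higher and the members' median log2 fold change lay between 0.81 and 0.83. Leaving out single libraries gave 16 to 20 called higher, 1 to 2 called lower (2 without fibrotic replicate 1, when Mdm4 is added), medians of 0.73 to 0.92, and 17 to 19 members without overlap on the higher and 3 to 4 on the lower side. Of the 19 called members, 17 were called under every alternative. The exceptions were Ercc5 and Plk2, each lost in 7 of 12 fits that left out a library. Plk2 was also not called with limma-voom (1.79, adjusted p = 0.0217) or without the low-count filter (2.30, adjusted p = 0.0138), and Ercc5 not with upper quartile normalization (0.58, adjusted p = 0.01062). Gdf15 was called by DESeq2 (adjusted p = 0.000661), limma-voom (0.00654) and the fit without the robust option (0.00582). With no fold limit, 3 members were called lower (adding Perp and Mdm4).

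For the other lists, no fold limit gave 2 regulators higher and 2 lower, 2 further targets lower and 2 integrated stress response genes higher. An adjusted p of 0.05 gave 2 regulators lower, and 2 stress response genes in each direction. Without the low-count filter, 0 regulators were called higher and 0 stress response genes lower. When single libraries were left out, regulators called higher ranged from 0 to 1, further targets called higher from 3 to 7 and lower from 0 to 2, and stress response genes higher from 1 to 3 and lower from 0 to 1. Among members and marker sums, the sign turned in such fits for Rrm2b (range -0.017 to 0.149), for Fbxw7 (-0.038 to 0.169, below 0 without fibrotic replicate 4) and for the lymphocyte marker sum (-0.0635 to 0.339). Among further genes with printed values, it turned for Chek1 (-0.09 to 0.285), Gadd45a (-0.014 to 0.306), Trib3 (-0.084 to 0.141) and Mcm7 (-0.042 to 0.041). The causes were not tested.

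Same-numbered libraries did not pair: correlations of their deviations from the group means ran from -0.162 to 0.104, and 0 libraries correlated best with their own number. With the replicate block, 16 members were called higher (Plk2 at 1.77, adjusted p = 0.0113, and Ercc5 at 0.57, adjusted p = 0.0193, were not), and over all genes 3780 were called in place of 4012. At the depth of 32 to 64 counts for Rrm2b and 2 to 28 for Pmaip1, small changes would not be detectable.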

Other observations

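The integrated stress response, which can induce Gdf15, Ddit4 and Tnfrsf10b as p53 does, was followed through 10 listed genes, of which 9 were tested. Only Asns, the asparagine synthetase, was called higher, from a median of 0.579 CPM in FLO to one of 5.56 CPM in fibrotic libraries (log2 fold change 3.52, SE 0.53, edgeR adjusted p = 8.51e-05). It had 7 to 15 counts in FLO libraries, 3 of which reached the level of the low-count filter, so it entered the test through the fibrotic group. Atf5 was called lower, from 339 to 176 CPM (-0.84, SE 0.23, edgeR adjusted p = 0.0065), and lost its call when any of 7 single libraries was omitted. Atf4, the central factor of that response, separated the groups with medians of 66.6 CPM in FLO and 87.5 CPM in fibrotic libraries, under the fold limit (0.49, edgeR adjusted p = 0.00255). Without FLO replicate 3, the library that goes against its stated sex, Atf4 was called higher (0.51, edgeR adjusted p = 0.00356) and Atf5 was not called (-0.73, edgeR adjusted p = 0.0151). Ddit3 (-0.39), Trib3 (0.05), Atf3 (0.20), Chac1 (-0.34), Fgf21 (-0.98) and Psat1 (1.17) were not called, with edgeR adjusted p from 0.0222 to 0.800. The median of the list was 0.05. The 1 gene called in each direction is 11.1% of those tested, against 15.9% of all genes higher and 14.0% lower.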
